A study of Mus musculus with 2 samples.

Results

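The proteasome is the protease of the cytosol and nucleus that degrades proteins tagged with ubiquitin, and the values below describe the transcripts of its constitutive subunits in mouse embryonic stem (ES) cells with and without Eed. Members were all probe sets with a single gene symbol made of Psm, a letter from a to f and a number, without the immunoproteasome genes Psmb8, Psmb9 and Psmb10. This gave 91 of 45101 probe sets, standing for 42 of 18193 genes. For 2 of the 42, Psmc3ip and Psme3ip1, the symbol names a partner protein and not a subunit, which left 40 genes. These 40 are called subunit genes below, although they include assembly chaperones, activators and an inhibitor. Gene expression was measured on 2 Affymetrix MOE430 2.0 arrays, 1 for ES cells with a constitutive Eed knockout (Eed KO) and 1 for control cells. Eed belongs to the core of Polycomb repressive complex 2, the histone H3 methyltransferase of silent developmental genes. The labels give no strain, no parent line, no passage and no number of clones, and do not say whether the cells grew on feeder cells. Each group has 1 array, so no SD or p-value could be computed, and each difference is one between these arrays.

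The 26S proteasome consists of a barrel, the 20S core, capped by 19S regulatory particles. The core stacks rings of alpha subunits, which form the gate, around rings of beta subunits, some of which carry the proteolytic sites. In the 19S particle a ring of ATPases unfolds the substrate and drives it into the core, while the non-ATPase subunits of base and lid bind ubiquitin and cut it off. Other caps, the activators of the Psme genes, bind the same core without ATPases. The transcription factor NFE2L1 raises the subunit genes together when proteasome activity is short. ES cells are known for high proteasome activity, which in human ES cells has been tied to the lid subunit encoded by PSMD11.

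The proteasome transcripts had nearly the same signal on both arrays. A signal is the MAS5 brightness of a probe set, in arbitrary units scaled to the same trimmed mean on both arrays, and a gene with several probe sets is given by the brightest of them (its main probe set) unless stated. Of the 40 genes, 39 were above the floor of 61.3, set at the 40th percentile of all signals, and all 39 were above it on both arrays, so no ratio was set by the floor. The median log2 ratio of Eed KO over control was -0.03, with quartiles of -0.19 and 0.04 and extremes of -0.78 and 0.44. Without the assembly chaperones, activators and inhibitor, this median was -0.05 over 32 measured genes. The same median was 0.12 over the 13794 measured genes and -0.05 over the 5781 bright ones, those with a mean signal of at least 10 times the floor, as all 39 members were. At 1.5-fold 0 members were higher and 2 were lower, Psmd7 and Psmc4, where 23.3% of all measured genes were higher and 10.2% lower, and 12.8% and 13% of the bright genes. At 2-fold 0 members were called in either direction (10.8% of all measured genes higher and 3.27% lower, 5.1% and 3.53% of bright genes). At a smaller size, a log2 ratio of 0.32, 3 were higher and 3 lower, where 37% of all measured genes were higher and 21.1% lower, and 23.9% and 28.5% of bright genes. Of the 39 members 33 (84.6%) thus stayed within 0.32, against 47.6% of the bright genes. The SD of the log2 ratio over members was 0.25, and over bright genes 0.62. Among genes with a mean signal of at least 40 times the floor, a limit chosen after the values were seen, 91.4% of 35 members and 53.4% of 1834 genes stayed within 0.32. The sign of the small median depended on the scaling: it was 0.05 with quantile normalization and 0.07 with the lowess trend taken out, and between -0.11 and -0.34 with the 3 other scalings.

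**Figure D1:**
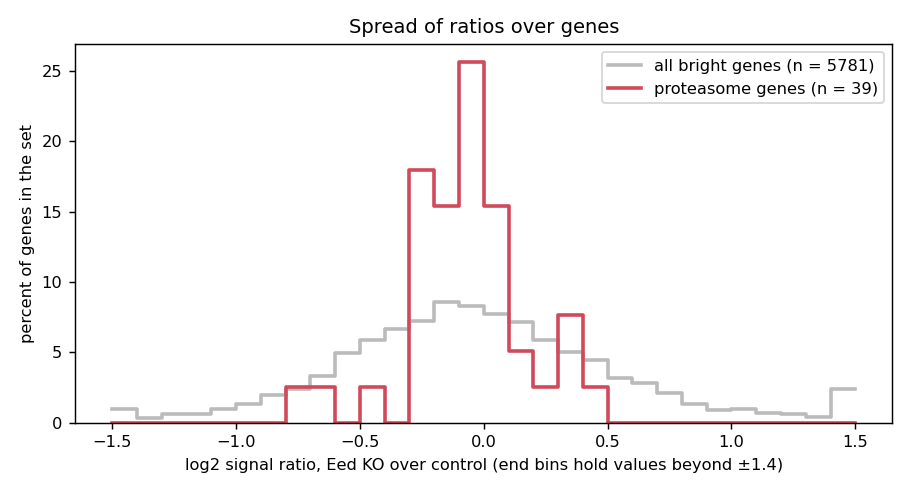
Percent of genes (vertical axis) in bins of the log2 signal ratio of Eed KO over control (horizontal axis), for the 39 measured proteasome genes and for all 5781 bright genes. The proteasome genes lie between -0.78 and 0.44, while bright genes reach the end bins on both sides.

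Facts of the whole array pair bear on these values. The median over all probe sets was 87.4 for control and 108.1 for Eed KO cells. The main Eed probe set read 10101 and 11456, and as the position of the disruption within the gene is not given, this is no check of the label. Of 8 ES cell markers, all were measured, with a median log2 ratio of 0.04, and they went both ways: Nanog (1.8-fold) and Zfp42 (1.72-fold) were higher in Eed KO cells and Utf1 (1.63-fold) lower, while Pou5f1, the gene of Oct4, read 12948 and 11352. Of 14 fibroblast markers, 12 were measured and all 12 passed 1.5-fold towards the Eed KO, with a signal summed over the 14 of 3295 in control and 10142 in Eed KO cells. Lum and Fap were under the floor on both arrays. The part of fibroblast RNA in the proteasome signals was not tested. In such bulk RNA, fewer cells of a type and less RNA per cell cannot be told apart.

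The alpha subunits of the core had log2 ratios within 0.32 of 0 in 7 of 8 genes, with a median log2 ratio of -0.11. Psma2 read 11165 in control and 9270 in Eed KO cells, the lowest ratio of the class (1.2-fold lower). Psma7 read 9958 and 8799, and its other probe set 9057 and 7104, so that both were lower in the Eed KO. Psma4 read 10451 and 9379. Psma5 read 15562 and 16170 (1.04-fold higher) and Psma6 13909 and 14164 (1.02-fold higher). Psma1 (9163 and 8709) and Psma3 (16195 and 14617) lay between these. The exception was Psma8, the germ cell counterpart of Psma7 in the testis proteasome, at 675.2 in control and 915.5 in Eed KO cells (1.36-fold higher). Its log2 ratio of 0.44 stayed between 0.13 and 0.44 in the alternatives. It has 1 probe set here, so no second measurement stands beside it.

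The beta subunits had log2 ratios within 0.32 of 0 in 7 of 7 measured genes, with a median log2 ratio of -0.03. The 3 catalytic ones were close to equal on both arrays. Psmb5, which carries the chymotrypsin-like site, read 8162 in control and 7524 in Eed KO cells (1.08-fold lower). Psmb6, which carries the caspase-like site, read 10488 and 11060 (1.05-fold higher). Psmb7, which carries the trypsin-like site, read 19022 and 18578 (1.02-fold lower). The order of arrays thus differed between the 3. Each log2 ratio was smaller in size than 0.21, the SD of a single bright probe set's log2 ratio. This SD was estimated from pairs of bright probe sets of the same gene, over 1974 genes. That SD covers probe and isoform spread within this array pair and no variation between cultures. Among the non-catalytic beta genes Psmb3 was the highest, at 7948 and 9815 (1.23-fold higher), and its second probe set read 7665 and 8539. Psmb1 was the lowest, at 7936 and 6618 (1.2-fold lower). Its 2 dim probe sets disagreed, at 314.2 and 158.3 for one and 175.8 and 217.8 for the other. Psmb2 read 4154 and 4422, and Psmb4 18675 and 17858. Psmb11, the gene of the thymus-specific beta subunit, read 3.2 and 32.5 and was not above the floor on either array.

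The promoters of the catalytic genes Psmb5 and Psmb6 are shown because NFE2L1 acts on proteasome genes through antioxidant response elements, with the 2 other promoters that hold the element core near the start. The RefSeq promoter table (GRCm38.p6) held windows from 250 bases before to 50 after the gene start for 33 of the 40 genes. The catalytic gene Psmb7 and the lid gene Psmd7 were among the genes without a window, so they were not searched. The core of the element was searched as TGACNNNGC on both strands. It was present for 6 of the 33 genes (18.2%), against 14.0% of all 27025 genes in the table and 16.6% of the 4792 bright genes in it. In 4 of the 6 it began less than 100 bases before the gene start. These are printed from 70 bases before to 50 after the start, 5′ to 3′ along the gene, with the element core in capitals.
Psmb5, chr14:54617946-54618065 (minus strand): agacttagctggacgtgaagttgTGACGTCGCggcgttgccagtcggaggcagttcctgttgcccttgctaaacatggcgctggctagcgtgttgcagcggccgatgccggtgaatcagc
Psmb6, chr11:70525287-70525406 (plus strand): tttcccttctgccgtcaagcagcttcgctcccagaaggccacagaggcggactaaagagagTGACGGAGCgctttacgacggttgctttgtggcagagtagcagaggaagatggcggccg
Psmd9, chr5:123228120-123228239 (plus strand): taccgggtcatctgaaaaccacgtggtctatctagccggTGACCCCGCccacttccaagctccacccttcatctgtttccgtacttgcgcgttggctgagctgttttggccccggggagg
Psme4, chr11:30771705-30771824 (plus strand): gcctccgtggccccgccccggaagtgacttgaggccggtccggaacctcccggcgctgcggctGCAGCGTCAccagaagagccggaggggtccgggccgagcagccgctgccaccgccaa
The core began 47 bases before the start of Psmb5, 31 before that of Psmd9, 9 before that of Psmb6 and 7 before that of Psme4, where it lies on the opposite strand. The other matches were in Psmc6 and Psmd12. The median log2 ratio was 0.03 for the 6 genes with the core (-0.21 to 0.39) and -0.08 for the 26 other measured genes with a window, so both sets lay near 0. A CCAAT box, searched as CCAAT on both strands, was present for 13 of the 33 (39.4%, against 41.1% of all genes and 43.6% of bright ones), and the ETS core CCGGAAGT for 8 (24.2%, against 4.3% of all genes and 12.0% of bright ones). TATAAA was present for 3 (9.1%, against 15.7% of all genes and 8.3% of bright ones). The motifs were searched independently, and overlapping matches were each counted. A match is a description of the sequence, and no binding was measured. The windows held a median of 20 CpG, against 8 over all genes and 24 over bright genes.

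The 6 ATPase genes of the 19S base had the lowest class median as deposited, a log2 ratio of -0.21, while with quantile normalization the activators were lower (-0.1 against -0.07). With the deposited scaling 6 of 6 were below 1, although 2 of 6 were above 1 with quantile normalization and 1 of 6 with the lowess trend taken out. Psmc4 stood lowest. The main probe set read 10588 in control and 6833 in Eed KO cells (1.55-fold lower), and its other probe set 6465 and 5604 (1.15-fold lower). Both were lower, by unequal amounts, and the gene's log2 ratio of -0.63 became -0.42 as the mean of both, -0.49 with quantile normalization and -0.51 with the lowess trend taken out, each under 1.5-fold. Psmc1 read 5131 and 4249 (1.21-fold lower), Psmc5 8255 and 7088, and Psmc2 9749 and 8918, with a second Psmc2 probe set at 9732 and 8081. For Psmc6 the main probe set read 7426 and 6428, while another went the other way at 2004 and 2525. Psmc3 was level at 6648 and 6627. The ATPase genes therefore ranged from equal signal to 1.55-fold, although their products sit in the same ring.

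**Figure D2:**
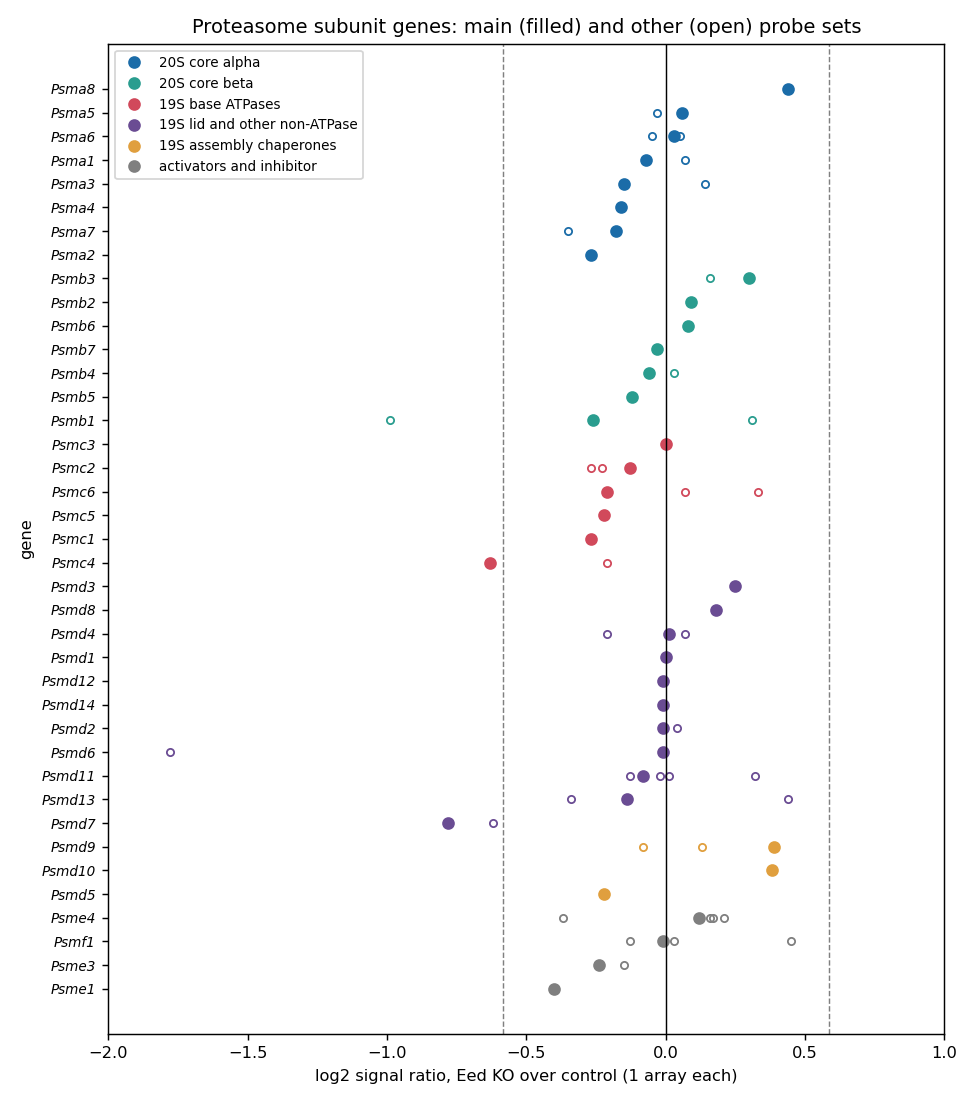
Log2 signal ratio of Eed KO over control (horizontal axis) for the 39 measured subunit genes (vertical axis), coloured by class. Filled points are each gene's main probe set and open points its other measured probe sets, and the dashed lines mark 1.5-fold. Psmd7 and Psmc4 are the 2 filled points beyond a dashed line, and the lowest open point, at -1.78, belongs to Psmd6.

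Among the 11 non-ATPase genes of lid and base, 10 had log2 ratios within 0.32 of 0 and the median log2 ratio was -0.01. Psmd7 differed most. It encodes the partner of the deubiquitinase PSMD14 in the lid, and read 6538 in control and 3807 in Eed KO cells (1.72-fold lower). Its dimmer second probe set read 365.0 and 236.8 (1.54-fold lower), so both measured probe sets were lower by similar factors. The third was under the floor on both arrays. The log2 ratio of -0.78 stayed between -1.09 and -0.67 in the 10 alternatives of scaling, floor and probe set choice, past 1.5-fold in each. PSMD14's own gene read 11023 and 10936, equal within 1.01-fold.

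Psmd6, a lid gene named after its values were seen, had probe sets that disagreed. The main one read 8719 in control and 8635 in Eed KO cells. The other, a probe set of the type that matches several transcripts of a gene, read 5170 and 1503 (3.44-fold lower). The distance of 1.77 on the log2 scale between them was reached by 4 of the 1974 genes with 2 bright probe sets (0.203%), Psmd6 included. As the mean over both, the gene's log2 ratio was -0.9. Which transcripts each probe set detects was not analysed here. Of the 14 subunit genes with several bright probe sets, 10 had all of them within 0.3 of each other on the log2 scale. The other 3 besides Psmd6 were Psmc4 (0.42), Psmd11 (0.45) and Psmc6 (0.54).

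**Figure D3:**
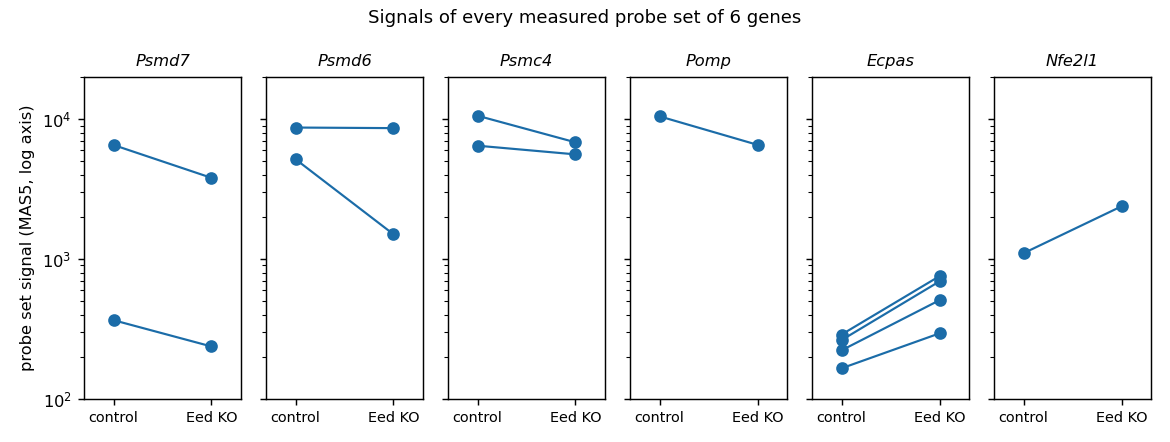
Signals in the control and the Eed KO array (log vertical axis, MAS5 units) for every measured probe set of 6 genes, 1 line per probe set. Both Psmd7 lines slope downward, from 6538 and 365.0, the 2 Psmd6 lines part, and all 4 Ecpas lines slope upward.

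The remaining lid and base genes lay between 1.1-fold lower and 1.19-fold higher by their main probe sets. Psmd3 read 3282 in control and 3904 in Eed KO cells (1.19-fold higher) and Psmd8 7103 and 8053 (1.13-fold higher). The scaffold subunits of the base, Psmd1 and Psmd2, read 8579 and 8592, and 8257 and 8192. The ubiquitin receptor gene Psmd4 read 7208 and 7279, and Psmd12 7220 and 7174. Psmd11, the gene tied to proteasome activity in human ES cells, read 14331 and 13576 with its main probe set, and its other bright ones read 5027 and 5072, 3893 and 3557, and 2167 and 2710. These went in both directions around equal signal. Psmd13 read 4271 and 3877 (1.1-fold lower), the second lowest of the class.

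The 3 Psmd genes that encode assembly chaperones of the base, and no subunit of the finished particle, did not move together. Psmd9 read 595.0 in control and 782.2 in Eed KO cells, and Psmd10, which encodes gankyrin, 962.4 and 1256, each 1.31-fold higher. Psmd5 read 2884 and 2477 (1.16-fold lower). The median of 0.38 became 0.15 as the mean over probe sets, since 2 further Psmd9 probe sets near the floor had log2 ratios of -0.08 and 0.13.

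Among the activators, Psme1 was the lowest. It encodes the alpha subunit of an interferon-inducible cap that serves antigen processing, and read 3578 in control and 2706 in Eed KO cells (1.32-fold lower). Its log2 ratio of -0.4 stayed between -0.71 and -0.31 in the alternatives, past 1.5-fold when array medians were made equal (-0.71) and on the poly-A spikes (-0.6). Psme2, its partner, had no probe set with a single symbol. Psme3, the nuclear activator, read 2772 and 2342 (1.18-fold lower), and its second bright probe set 2353 and 2126. Psme4, which encodes a large activator known from histone turnover in germ cells and DNA repair, read 4567 and 4953, with further bright probe sets at 4477 and 5041 and at 3257 and 3774. All 3 were slightly higher in the Eed KO. Psmf1, the gene of an inhibitor of the core, was level at 1089 and 1084. The excluded immunoproteasome genes went both ways: Psmb9 read 185.4 and 378.5 (2.04-fold higher) and Psmb8 89.9 and 129.5 (1.44-fold higher), both dim, while the brighter Psmb10 read 921.3 and 767.3 (1.2-fold lower). Of the 8 measured interferon response genes, 3 of which are these, 6 were higher and 2 lower, with a median log2 ratio of 0.45. This median was 0.16 with quantile normalization, 0.15 with equal array medians and 0.18 with the lowess trend taken out. At 1.5-fold 2 were higher, Psmb9 and Ifit3, and 0 lower, where 23.3% and 10.2% of all measured genes were. Ifit1 (28.3 and 86.6) and Ifit3 (13.9 and 113.4) were under the floor in control, so the floor set their ratios. The summed signals of the 8 genes, 2757 and 2760, were nearly equal, since the brightest, Irf1 (1290 and 994.2) and Psmb10, were the lower ones.

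**Figure D4:**
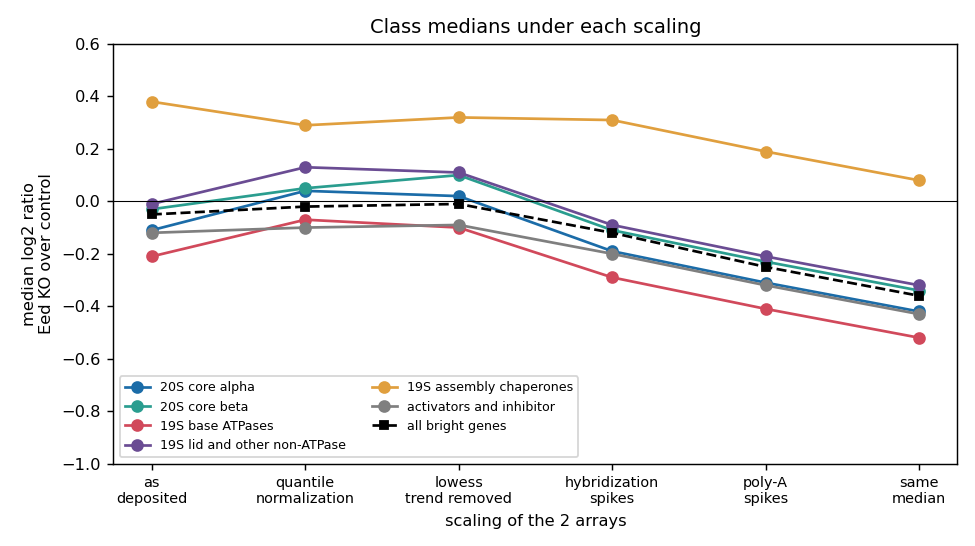
Median log2 ratio of Eed KO over control (vertical axis) of each subunit class under the deposited scaling and 5 other scalings (horizontal axis), with the median of all bright genes as a dashed line. Under the spike and median scalings the classes and the bright genes shift together, as a whole array is multiplied by a constant factor. With the deposited, quantile and lowess scalings the ATPases lie below that line and the assembly chaperones above it.

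Scaling to spikes or to the same median multiplies a whole array by a constant factor. It shifts the classes and the bright genes alike, so their distance could change only with quantile normalization and lowess. The median over all bright genes was -0.05 as deposited, -0.02 with quantile normalization, -0.01 with the lowess trend taken out, -0.12 on the hybridization spikes, -0.25 on the poly-A spikes and -0.36 when array medians were made equal. The proteasome median differed from it by 0.01 under the deposited, spike and median scalings, and by 0.07 and 0.08 under quantile normalization and lowess. The ATPase median differed from the bright median by -0.17 as deposited, -0.05 with quantile normalization and -0.09 with lowess. The alpha median changed sides, with differences of -0.06 as deposited, 0.05 with quantile normalization and 0.02 with lowess. For lid and other non-ATPase genes they were 0.04, 0.15 and 0.11. No test of a difference between classes can be had from 1 array a group.

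Genes that build, assist or regulate the proteasome differed between lists in how far they spread. The SD over genes was 0.73 for 6 assembly factors, or 0.27 without Ecpas, and 0.63 for 6 genes of transcription and activation. It was 0.32 for 4 other subunits and bound enzymes and 0.22 for 4 shuttle factors, beside 0.25 for the subunits. Over all bright genes the SD was 0.62, and over all measured genes 0.71. Of the assembly factors 5 of 6 were bright, and of the transcription and activation genes 4 of 6, while all 39 measured subunit genes were. Of 6 measured assembly factors outside the symbol rule, 1 was at least 1.5-fold higher and 1 lower. Over all measured genes the shares were 23.3% higher and 10.2% lower. Pomp, the maturation factor that starts assembly of beta subunits on the alpha ring, read 10480 in control and 6558 in Eed KO cells (1.6-fold lower), with a log2 ratio of -0.68 that stayed between -0.98 and -0.53 and was under 1.5-fold at its smallest. Ecpas, which encodes an adaptor that tethers the 19S particle to the core, read 288.4 and 754.1 (2.61-fold higher). Its 3 other probe sets were higher as well, at 263.3 and 691.9, 222.4 and 507.5, and 165.4 and 293.9. All 4 probe sets thus had the higher signal in the Eed KO, and the gene's log2 ratio stayed between 1.08 and 1.39. The chaperone genes Psmg3 (1458 and 1044, 1.4-fold lower) and Psmg4 (1576 and 1407, 1.12-fold lower) came next in size of difference. With equal array medians, and on the poly-A spikes, 2 genes of this list were at least 1.5-fold lower, and 0 with quantile normalization or lowess.

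Of the 4 measured genes for other subunits and bound enzymes, 0 passed 1.5-fold as deposited by main probe set, and 3 had log2 ratios below -0.32. All 4 were bright, and of bright genes 12.8% were at least 1.5-fold higher and 13% lower. With equal array medians, and on the poly-A spikes, 3 of the 4 were at least 1.5-fold lower. Usp14, a deubiquitinase bound to the base, read 5069 in control and 3586 in Eed KO cells (1.41-fold lower), and its 3 other measured probe sets had log2 ratios of -0.22 to -0.44. Uchl5, another deubiquitinase, read 4783 and 3627, and the ubiquitin ligase gene Ube3c 1391 and 1051. For both, a further probe set was lower by more than 1.5-fold. The Ube3c one read 974.1 and 630.7, and the dim Uchl5 one 141.6 and 89.6. Sem1, a small lid subunit, read 5390 and 6145.

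Among 6 measured genes that control proteasome transcription or its activator, 2 were at least 1.5-fold higher and 0 lower. Of all measured genes, 23.3% were higher and 10.2% lower by this fold. Nfe2l1, the factor that drives subunit genes, read 1101 in control and 2382 in Eed KO cells (2.16-fold higher). Ngly1, the glycanase that NFE2L1 protein needs for activation, read 274.9 and 612.4 (2.23-fold higher). Each has 1 probe set here. Their log2 ratios of 1.11 and 1.16 stayed between 0.81 and 1.15 and between 0.85 and 1.16, while the median of the subunit genes lay near 0 beside them. Vcp, the unfolding ATPase upstream of the proteasome, read 11573 and 9252, and Mafk, a small partner of NFE2L1, 211.2 and 242.1. Of the 4 measured shuttle factors, which carry ubiquitinated proteins to the proteasome, 0 passed 1.5-fold by main probe set. Ubqln4 was lowest (2732 and 2263) and Ubqln1 highest (6341 and 7448). The other measured Ubqln1 probe set went the other way, at 2237 and 1977. The ubiquitin-activating enzyme gene Uba6 was the 1 measured gene of its list, and its probe sets disagreed. The main one read 2136 and 1997. Others were higher in the Eed KO, at 1255 and 1760 and at 744.3 and 1272, and a dim one was lower, at 207.7 and 138.0.

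**Figure D5:**
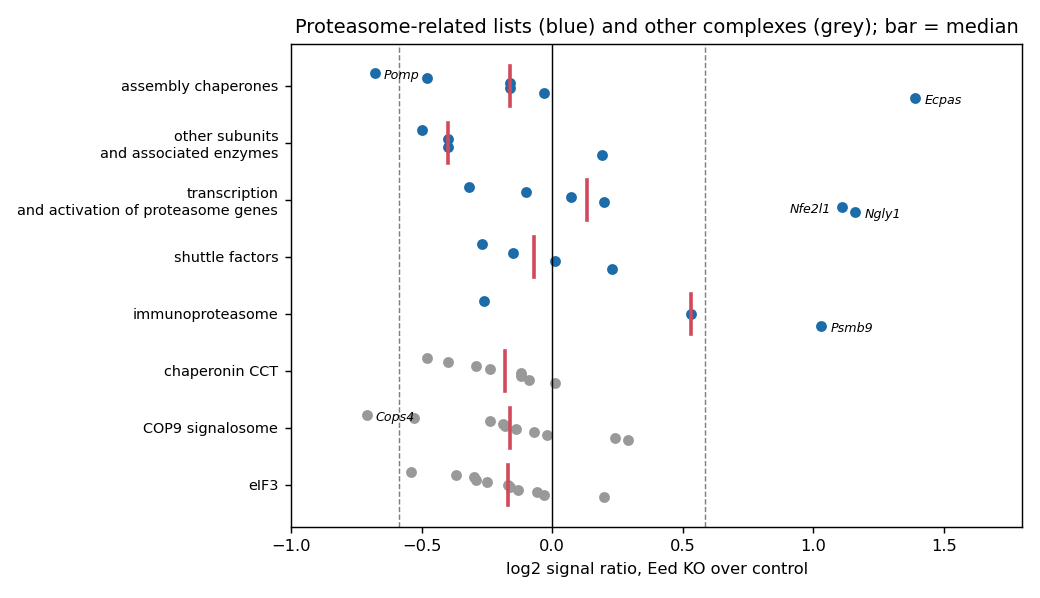
Log2 signal ratio of Eed KO over control (horizontal axis) for the measured genes of 5 proteasome-related lists (blue) and 3 other multi-subunit complexes (grey), each point 1 gene and each bar the median of its list. Dashed lines mark 1.5-fold, and Ecpas, Nfe2l1, Ngly1 and Psmb9 lie beyond the upper one, Pomp and Cops4 beyond the lower one.

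The narrow range of the subunits was shared by other large complexes on the same arrays. The chaperonin CCT, a ring of related subunits that folds actin and tubulin, had a median log2 ratio of -0.18 over 8 genes, with an SD over genes of 0.17 and 0 genes past 1.5-fold. The COP9 signalosome, whose subunits match those of the lid in architecture, had a median of -0.16 over 10 genes and an SD of 0.31, with 1 gene, Cops4, 1.64-fold lower (2573 to 1571). The translation initiation factor eIF3, built on the same plan, had a median of -0.17 over 11 genes and an SD of 0.19, and 0 past 1.5-fold. All genes of the 3 complexes were bright, and of bright genes 12.8% were at least 1.5-fold higher and 13% lower as deposited. The counts of lower genes depended on the scaling. With equal array medians they were 3 for CCT, 2 for COP9 and 4 for eIF3, and on the poly-A spikes 2, 2 and 1. On the hybridization spikes they were 0, 2 and 1, and with quantile normalization 0, 2 and 0. The median of bright genes was -0.36 with equal array medians and -0.25 on the poly-A spikes. The proteasome SD of 0.25 lay between the SDs of the 3 complexes. By main probe sets, which also gave the counts above, Cct6a (1.39-fold lower) and Eif3l (1.45-fold lower) were the most different members of their complexes. Some other probe sets differed more. A bright Cct7 probe set read 12062 in control and 7059 in Eed KO cells (log2 ratio -0.77). A dim Cct4 probe set went the other way, at 357.7 and 853.7. The medians of the 3 complexes were below that of the proteasome, a difference that could not be tested with 1 array a group. The symbol matches that are no subunits were level too: Psmc3ip, which encodes a meiotic recombination factor, read 1346 and 1359, and Psme3ip1, a partner of the nuclear activator, 1781 and 1756.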

How the data were processed

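Total RNA of 1 control and 1 Eed KO sample was labelled with biotin and hybridized to 1 array each. MAS5 made the signals, per the submitters' processing notes, which name no version. The deposited table holds linear intensities, already scaled by the authors: the mean without the lowest and highest 2% was 500.0 on both arrays. Neither the table nor the labels used here give detection calls, and the number of arrays limits the precision.

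In the platform annotation 34945 probe sets had 1 symbol, 932 several and 9160 none in that table, and 64 were controls. All 42 member genes had a RefSeq gene ID and 0 symbols changed. The main probe set of a gene is the one of highest mean log2 signal over both arrays. Signals under the floor (40th percentile, 61.3) were set to it. A gene above it on at least 1 array counted as measured, and a difference of 1.5-fold as called. Named genes were all member genes by class, with both signals where they were the 3 highest or lowest of a class, catalytic, ATPase, activator or tissue-specific genes, and the most different genes of the other lists, at most 4 each. The members and lists were chosen with earlier results of these data known. Computations used Python 3.11.15, pandas 2.3.3, numpy 2.4.6 and statsmodels 0.14.6, and the procedure was tested on simulated data. Alternatives were 5 scalings (quantile, same median, lowess with span 0.3, hybridization spikes, poly-A spikes), other floors (percentiles 25 and 60), a pseudocount of the floor's size, averaging a gene's probe sets, dropping those marked _x_at or _s_at, and calls at 2-fold or at a log2 ratio of 0.32.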

Additional observations from a re-analysis of the deposited data

How the results depend on the processing

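Under the 10 alternatives besides the call size, the subunit medians stayed within 0.21 on the log2 scale of their deposited values, the SD of a bright probe set, except in the cases below. Scaling both arrays to the same median moved them to -0.34 for all subunit genes, -0.42 for alpha, -0.34 for beta, -0.52 for ATPase, -0.32 for lid and other non-ATPase genes, 0.08 for assembly chaperones and -0.43 for activators and inhibitor, with the bright genes moving to -0.36. The mean over probe sets moved the assembly chaperones to 0.15. The count of genes at least 1.5-fold lower, 2 as deposited, was 1 with quantile normalization and 1 with the lowess trend taken out, where Psmc4 was under 1.5-fold. It was 3 with equal array medians and 3 on the poly-A spikes, where Psme1 joined. With the mean over probe sets it was again 2, but with Psmd6 in place of Psmc4. At 2-fold 0 genes were lower, and at a log2 ratio of 0.32 in size 3 were higher and 3 lower. No replicate could be left out and no paired analysis was possible because each group has 1 array. Dim probe sets near the floor limit what can be read for Psmb11 and the second probe sets of Psmd9 and Psmb1.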
